A study of Mus musculus with 12 samples.

Results

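Axon guidance ligands and their receptors were followed as 1 group of 67 genes in primary neural progenitor cells from the mouse embryonic cortex. The group takes the gene names of the class 3 to class 7 semaphorins, plexins, neuropilins, ephrins, Eph receptors, slits, Robo receptors, netrins, Unc5 receptors and Dcc, where 3 or more of the 12 libraries reach a deposited value of 1. These 67 genes passed out of 71 rows with such names and belong to 20240 genes tested. The 4 rows left out were Plxnb3 and 3 transcripts antisense to Plxna4. By role, 13 members encode secreted ligands, 21 membrane-bound ligands and 33 receptors.

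All cells were wild type, were taken at embryonic day E13.5 and were cultured overnight with bFGF and EGF. They then received the solvent DMSO or 250 nM Torin1, which blocks the kinase activity of mTOR, over 2 h, and afterwards cycloheximide, which holds ribosomes on their mRNAs. Total mRNA was taken from 10% of each lysate, and polysome mRNA from gradient fractions with more than 3 ribosomes per mRNA. Each of the 4 groups (2 treatments, each as total and as polysome mRNA) has 3 libraries labelled as biological replicates. The labels do not say whether the replicates came from separate litters, so p-values measure the spread between these cultures.

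Axon guidance ligands tell a growing axon or a migrating cell where to go. Semaphorins bind plexins, and the secreted class 3 semaphorins mostly need a neuropilin as co-receptor. Ephrins are held on the cell surface, by a lipid anchor in the A class and by a membrane-spanning segment in the B class, and they signal to Eph receptor kinases on neighbouring cells. Slits repel axons through Robo receptors, and netrins attract through Dcc or repel through Unc5 receptors. In the developing cortex these proteins also guide migrating neurons and help to keep progenitors in place.

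The promoters of 4 members that changed with Torin1 in both kinds of mRNA under every setting tried are shown because they stand for both directions of the response. Efna2 and Efna3 fell, and Efnb2 and Nrp2 rose. The 250 bases upstream of each start are RefSeq sequence of build GRCm38.p6, given 5′ to 3′ on the gene's strand. Efna2 lies at chr10:80179232-80179481 on the plus strand, Efna3 at chr3:89322940-89323189 on the minus strand, Efnb2 at chr8:8661243-8661492 on the minus strand and Nrp2 at chr1:62703067-62703316 on the plus strand. Efna3 has 2 RefSeq entries, and the outermost start was used. Capitals mark every match to the GC box, GGGCGG on either strand, the core of the sites that Sp factors bind.
Efna2: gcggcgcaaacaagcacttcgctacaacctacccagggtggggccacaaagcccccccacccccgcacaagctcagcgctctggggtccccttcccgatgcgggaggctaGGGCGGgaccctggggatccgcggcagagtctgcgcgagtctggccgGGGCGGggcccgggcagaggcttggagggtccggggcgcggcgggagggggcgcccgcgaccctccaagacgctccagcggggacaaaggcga
Efna3: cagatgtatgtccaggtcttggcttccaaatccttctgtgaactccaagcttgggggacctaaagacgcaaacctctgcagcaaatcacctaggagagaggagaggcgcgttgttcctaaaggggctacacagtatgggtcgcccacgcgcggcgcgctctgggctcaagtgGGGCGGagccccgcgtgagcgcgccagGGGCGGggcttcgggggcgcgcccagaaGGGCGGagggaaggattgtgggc
Efnb2: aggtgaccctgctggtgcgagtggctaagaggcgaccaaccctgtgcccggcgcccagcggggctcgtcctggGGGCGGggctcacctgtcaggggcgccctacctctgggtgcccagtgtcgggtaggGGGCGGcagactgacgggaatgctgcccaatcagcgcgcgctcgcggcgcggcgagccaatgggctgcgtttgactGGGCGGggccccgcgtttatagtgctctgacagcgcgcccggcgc
Nrp2: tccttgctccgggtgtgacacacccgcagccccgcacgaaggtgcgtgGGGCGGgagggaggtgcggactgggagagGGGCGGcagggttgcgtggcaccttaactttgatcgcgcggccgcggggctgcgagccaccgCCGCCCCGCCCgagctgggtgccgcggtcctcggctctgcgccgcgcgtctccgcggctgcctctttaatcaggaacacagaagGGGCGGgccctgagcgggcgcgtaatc

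The printed windows hold 2 GC boxes in Efna2, 3 in Efna3, 3 in Efnb2 and 5 in Nrp2, and their GC content ran from 63.6% to 73.6%. A promoter was matched by symbol for 57 of the 67 members. The GC box was found in 42 of these 57 (73.7%), against 32.7% of 32851 promoters of the same length. Those 32851 are all promoter entries, not limited to the genes tested, and a gene can have several, while each member counts once. A difference from them is therefore not shown to be particular to guidance genes. It occurred in 11 of 14 matched members that rose in polysome mRNA and in 5 of 6 that fell. The median GC content was 64.4% in the members and 52.4% in all promoters. The forkhead motif TGTTTAC was in 0 of the 57 member windows, against 3.17% of all promoters. The E-box CACGTG was in 3 (5.26%, against 6.02%), the CRE TGACGTCA in 1 (1.75%, against 1.55%) and the AP-1 motif TGACTCA in 1 (1.75%, against 4.46%). Each motif was searched on both strands. A match is a description of the letters and not a measured binding site.

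The deposited values are normalized abundances and do not give the number of reads, so sequencing depth is unknown. Values below are ppm of the scaled library total, and since it is not known whether they are per length, levels are compared only within a gene. A family without a called gene is shown by the gene with the highest mean deposited value, a choice that says nothing about levels between genes. Folds are differences between group means of log2(value + 1), where the value is the rescaled one on the scale of the deposited table, before its conversion to ppm. They are given ± their standard error with 3 libraries in each group. A gene was called where limma's p-value, adjusted by Benjamini-Hochberg over all 20240 genes, was below 0.05. The cell type label was checked against markers. Markers of radial glia were present at a summed 3496 to 3599 ppm in the total DMSO libraries, but markers of cortical neurons were too, at 2757 to 2803 ppm, and blood genes at 1035 to 1108 ppm. These sums over different genes show presence and do not rank the cell types. In total mRNA Torin1 raised 4 of 9 radial glia markers, 5 of 5 of intermediate progenitors, 2 of 9 of cortical neurons, 1 of 6 of interneurons and 4 of 11 of endothelial, mural and meningeal cells, and lowered none of them. None of 6 microglial and 4 blood markers was called. Of all genes tested, 3.04% were called higher and 4.35% lower in total mRNA. The endothelial, mural and meningeal sum was 41.9 to 49.1 ppm with DMSO and 65.6 to 78.6 ppm with Torin1, while the intermediate progenitor sum was 177 to 187 and 268 to 277 ppm. The part of these shifts in the results below was not tested, and in bulk samples more cells of a type and more RNA per cell cannot be told apart. Total Torin1 replicate 2 stood apart by its content of the small nuclear RNA Rn7sk, 2069 ppm against 38.7 to 183 ppm in the other total libraries. Without it 11 members and 793 of all genes were called in total mRNA.

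In total mRNA, 2 h of Torin1 raised both neuropilins, 3 Eph A receptors and a few semaphorins, and lowered 3 of the 5 A-class ephrins. Of the 67 members 15 were called (22.4%), against 7.39% of all genes tested. The 9 that rose are 13.4% of the members, against 3.04% of all genes, and the 6 that fell are 8.96%, against 4.35%. The median fold was 0.13 over the members and -0.01 over all genes. The libraries of the 2 treatments did not overlap for 27 higher and 15 lower members (40.3% and 22.4%), against 14.7% and 18.7% of all genes.

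**Figure D1:**
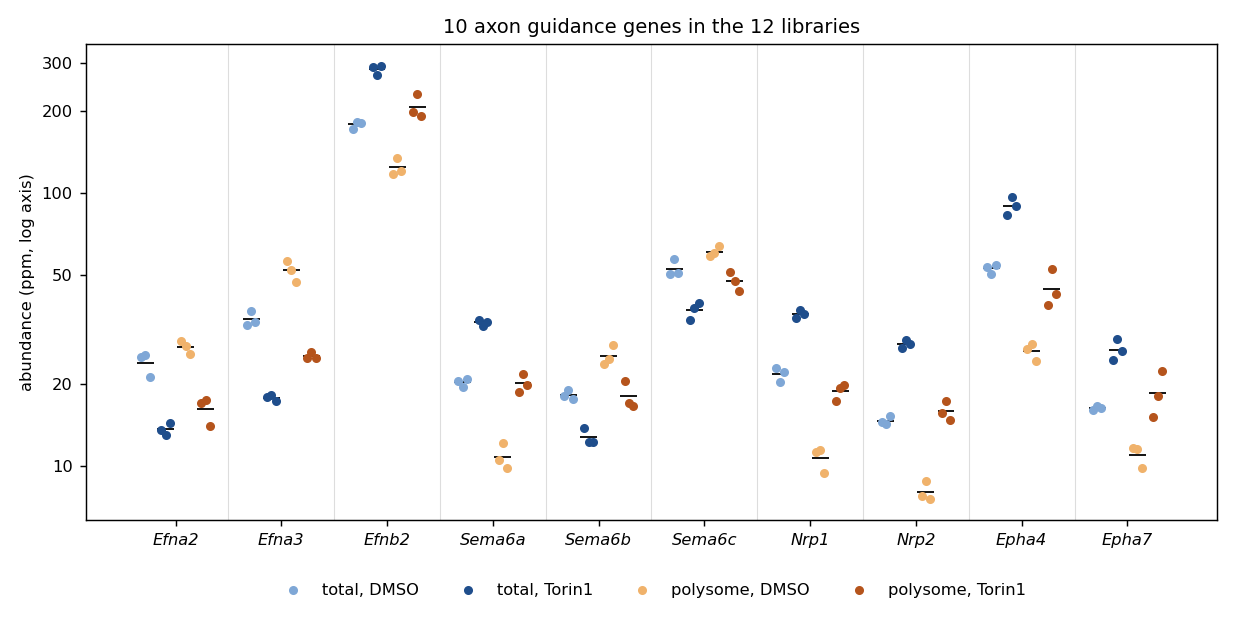
Scaled values in ppm (vertical log axis) of the 10 guidance genes called in total mRNA under every setting and without each library, in total and polysome libraries of DMSO and Torin1 cells. Points are single libraries and bars are group means of 3. For every gene the 3 Torin1 libraries lie apart from the 3 DMSO libraries of the same kind of mRNA.

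The A-class ephrins gave the largest falls. Efna3 was at 32.9, 37.0 and 33.6 ppm in the DMSO libraries and at 17.9, 18.3 and 17.3 ppm in the Torin1 libraries. All 3 Torin1 libraries lay far below the lowest DMSO library. The fold was -0.95 ± 0.08 (limma, adjusted p = 8.6e-05). Efna2 was at 25.2, 25.5 and 21.2 ppm with DMSO and at 13.6, 13.1 and 14.4 ppm with Torin1, again without overlap, and the fold was -0.80 ± 0.10 (limma, adjusted p = 0.00113). Efna4 went from 15.8 ± 1.2 to 11.7 ± 0.98 ppm (SD, n = 3), a fold of -0.42 ± 0.11 (limma, adjusted p = 0.044). Its call was lost without any one of the 6 libraries compared, with adjusted p from 0.055 to 0.137. Efna1 and Efna5 were not called. Efna1, Efna3 and Efna4 are neighbours on chromosome 3, with gaps of 32.9 kb between Efna1 and Efna3 and of 10.5 kb between Efna3 and Efna4.

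Of the 3 B-class ephrins 1 was called in total mRNA. Efnb2, a ligand of Eph B receptors and of EphA4, was at 172, 182 and 180 ppm with DMSO and at 288, 270 and 292 ppm with Torin1. Every Torin1 library exceeded every DMSO library, with a fold of 0.67 ± 0.08 (limma, adjusted p = 0.00074). Efnb1 had a fold of 0.11 ± 0.09, with a 95% interval from -0.08 to 0.30. Efnb3 had a fold of -0.27 ± 0.08 (limma, adjusted p = 0.0825).

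The class 6 semaphorins, membrane proteins that bind A-class plexins, split into 2 that rose and 2 that fell. Sema6a was at 20.6, 19.5 and 20.9 ppm with DMSO and at 34.4, 32.6 and 33.9 ppm with Torin1. The 2 treatments lay far apart, with a fold of 0.73 ± 0.09 (limma, adjusted p = 0.000861). Sema6d rose from 48.7 ± 4.4 to 67.5 ± 2.3 ppm (SD, n = 3), a fold of 0.47 ± 0.11 (limma, adjusted p = 0.0188). This call was lost without total DMSO replicate 2 (limma, adjusted p = 0.0802), total Torin1 replicate 2 (adjusted p = 0.0689) or total Torin1 replicate 3 (adjusted p = 0.0669). Sema6b fell from 18.1, 19 and 17.7 ppm to 13.8, 12.3 and 12.3 ppm, a fold of -0.51 ± 0.10 (limma, adjusted p = 0.00963). Sema6c fell from 50.4, 57.2 and 51.0 ppm to 34.3, 37.9 and 39.7 ppm, a fold of -0.50 ± 0.08 (limma, adjusted p = 0.00419). In both genes the treatments did not overlap.

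Among the secreted ligands 1 of 13 was called in total mRNA. Sema3a, the classical repellent that acts through neuropilin 1, was at 18.7, 18.5 and 18.8 ppm with DMSO and at 28.3, 25.7 and 28.9 ppm with Torin1. Its fold was 0.57 ± 0.12 (limma, adjusted p = 0.0143). The call was lost without total DMSO replicate 1 or 2 or total Torin1 replicate 1 or 3, with adjusted p from 0.055 to 0.0644. None of the 3 slits and none of the 3 netrins was called. Slit1, shown for the slits, had a fold of 0.16 ± 0.14, and Ntn1, shown for the netrins, 0.21 ± 0.18. Ntn5 was listed at 0 in 8 of the 12 libraries and is given no fold.

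Of the receptors, both neuropilins rose. Nrp2 was at 14.5, 14.3 and 15.3 ppm with DMSO and at 27.1, 29 and 28 ppm with Torin1. It had the largest rise among the called members in total mRNA, 0.93 ± 0.09 (limma, adjusted p = 0.000169). Nrp1 was at 23.0, 20.3 and 22.2 ppm with DMSO and at 34.9, 37.4 and 36.1 ppm with Torin1, a fold of 0.73 ± 0.09 (limma, adjusted p = 0.000951). In neither gene did the treatments overlap. The 8 plexins, the receptors that neuropilins work with, had folds from -0.40 to 0.34, and none was called.

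The Eph A receptors held 3 called members of 9, all higher. Epha4, which binds ephrins of both classes, was at 53.8, 50.7 and 54.6 ppm with DMSO and at 83.2, 96.3 and 89.8 ppm with Torin1, a fold of 0.76 ± 0.10 (limma, adjusted p = 0.00152). Epha7 was at 16.1, 16.7 and 16.3 ppm with DMSO and at 24.4, 29.2 and 26.4 ppm with Torin1, a fold of 0.70 ± 0.13 (limma, adjusted p = 0.00767). Both genes were higher in each Torin1 library than in any DMSO library. Epha3 went from 31.2 ± 1.2 to 45.1 ± 0.97 ppm (SD, n = 3), a fold of 0.53 ± 0.13 (limma, adjusted p = 0.0346). Ephb4 was the one receptor that fell, from 6.62 ± 0.56 to 4.63 ± 0.34 ppm (SD, n = 3) and by a fold of -0.51 ± 0.13 (limma, adjusted p = 0.0335). The calls of Epha3 and Ephb4 were lost without any one of the 6 libraries compared, with adjusted p of 0.084 to 0.118 for Epha3 and of 0.0549 to 0.124 for Ephb4. None of the Robo receptors, the Unc5 receptors and Dcc was called, and Unc5d, shown for the Unc5 receptors, had a fold of 0.11 ± 0.10.

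Class 4 and class 7 semaphorins, which are membrane-bound, had no called member in either kind of mRNA. Sema4c, shown for class 4, had folds of -0.30 ± 0.10 in total and -0.22 ± 0.10 in polysome mRNA, and Sema7a, the sole class 7 gene, -0.27 ± 0.09 and -0.15 ± 0.09. With total libraries alone in the fit, which then estimates the spread from them only, 31 members were called, 18 higher and 13 lower. The calls over all genes rose as well, from 1496 in the main fit to 2657, 1004 higher and 1653 lower.

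**Figure D2:**
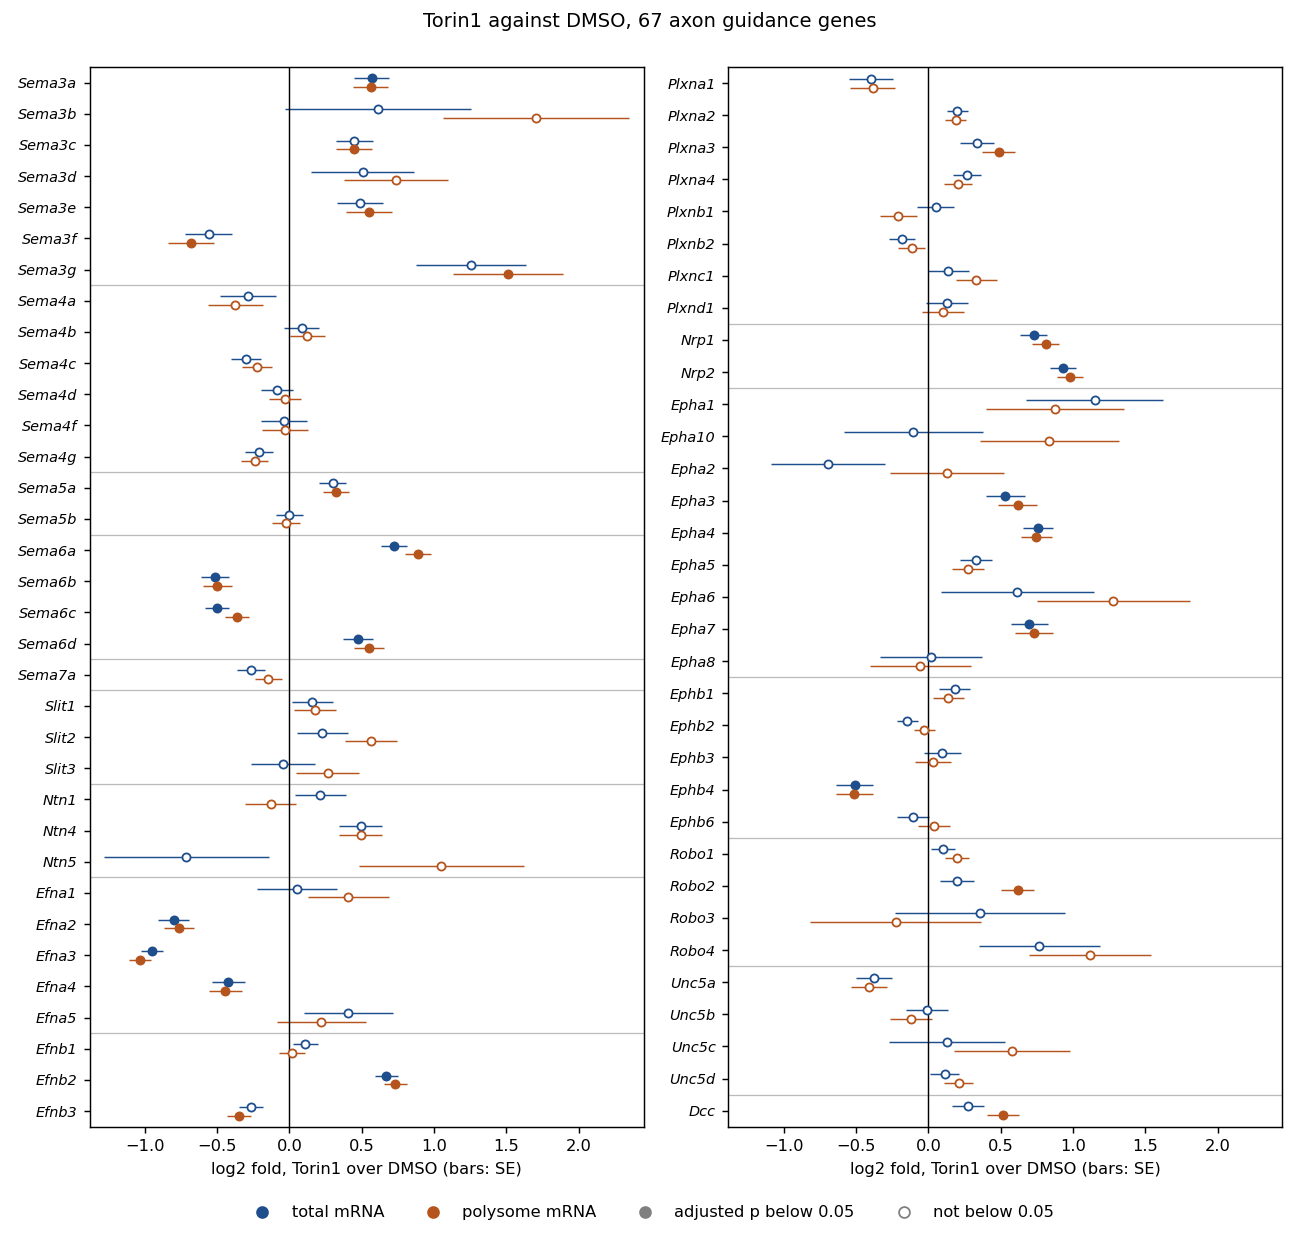
Log2 fold of Torin1 over DMSO (horizontal axis) for each of the 67 genes in total mRNA (blue) and polysome mRNA (orange). Points are folds from limma with 3 libraries a group, bars are ± 1 standard error, and filled points have an adjusted p below 0.05. Nrp1, Nrp2, Sema6a, Efnb2 and Epha4 lie to the right of 0 and Efna2, Efna3 and Sema6b to the left in both kinds of mRNA. The widest bars belong to Sema3b, whose replicates scatter, followed by Robo3 and Ntn5, which lie near 0 ppm.

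In polysome mRNA the same 15 genes were called in the same directions, and 9 more joined them. Of the 67 members 24 were called (35.8%), against 10% of all genes. The 16 that rose are 23.9% of the members, against 4.57% of all genes, and the 8 that fell are 11.9%, against 5.45%. The median fold was 0.20 over the members and 0 over all genes. The treatments did not overlap for 22 higher and 11 lower members (32.8% and 16.4%), against 11.7% and 12.3% of all genes.

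Efna3 again fell most, from 56.5, 52.3 and 47.4 ppm with DMSO to 24.9, 26.3 and 24.9 ppm with Torin1, a fold of -1.03 ± 0.08 (limma, adjusted p = 1.42e-05). Efna2 fell from 28.8, 27.6 and 25.8 ppm to 17.1, 17.5 and 14 ppm, a fold of -0.76 ± 0.10 (limma, adjusted p = 0.000768). Neither overlapped between treatments. Efna4 fell by 0.44 ± 0.11 (limma, adjusted p = 0.0292). Efnb3, a B-class ephrin that was not called in total mRNA, was called here, at 45.1 ± 1.1 and 35.6 ± 4.1 ppm (SD, n = 3) and a fold of -0.35 ± 0.08 (limma, adjusted p = 0.0215). Sema6b and Sema6c had folds of -0.50 ± 0.10 and -0.36 ± 0.08, and Ephb4 had -0.51 ± 0.13.

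The largest rises outside the lowest abundances were those of Nrp2, Sema6a and Nrp1. Nrp2 was at 7.79, 8.81 and 7.62 ppm in DMSO polysomes and at 15.7, 17.4 and 14.8 ppm in Torin1 polysomes, a fold of 0.98 ± 0.09 (limma, adjusted p = 4.69e-05). Sema6a was at 10.6, 12.1 and 9.87 ppm and at 18.7, 21.7 and 19.9 ppm, a fold of 0.89 ± 0.09 (limma, adjusted p = 9.46e-05). Nrp1 was at 11.3, 11.5 and 9.48 ppm and at 17.4, 19.3 and 19.8 ppm, a fold of 0.81 ± 0.09 (limma, adjusted p = 0.000212). In these 3 genes each Torin1 library lay above each DMSO library. Efnb2 was at 117, 134 and 120 ppm and at 198, 230 and 191 ppm, a fold of 0.73 ± 0.08 (limma, adjusted p = 0.000159). Epha4 was at 26.9, 28.1 and 24.3 ppm and at 38.8, 52.5 and 42.7 ppm, a fold of 0.75 ± 0.10 (limma, adjusted p = 0.000904). Epha4 and Efnb2, a receptor and one of its ligands, thus both had non-overlapping treatments. Epha7 and Epha3 had folds of 0.73 ± 0.13 and 0.62 ± 0.13, Sema3a of 0.56 ± 0.12 and Sema6d of 0.55 ± 0.11.

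Of the 9 genes called in polysome mRNA but not in total mRNA, 4 are secreted class 3 semaphorins. Sema3c had a fold of 0.45 ± 0.12 and Sema3e of 0.55 ± 0.16, with total mRNA folds of 0.45 ± 0.12 and 0.48 ± 0.16. Sema3f, which signals mainly through neuropilin 2, had a fold of -0.68 ± 0.16 in polysome and -0.56 ± 0.16 in total mRNA. Sema3g had the largest fold, 1.51 ± 0.38, but lay at 0.196, 0.066 and 0.0734 ppm with DMSO and at 0.443, 0.392 and 0.367 ppm with Torin1, near the lower end of the scale. The membrane semaphorin Sema5a had a fold of 0.32 ± 0.09 and Plxna3, a plexin that works with neuropilins, one of 0.49 ± 0.12. Robo2, a slit receptor, rose from 18.4, 22.9 and 21.6 ppm to 27.6, 37.6 and 31.6 ppm, a fold of 0.62 ± 0.12 (limma, adjusted p = 0.00562). Dcc, the attractive netrin receptor, rose from 10.5, 11.9 and 9.86 ppm to 13.6, 18.3 and 14.5 ppm, a fold of 0.51 ± 0.11 (limma, adjusted p = 0.0121).

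The polysome calls depended on which libraries estimated the spread and on the scaling. With the polysome libraries alone in the fit, 433 of all genes were called, against 2027 in the main fit. Of the 24 members 6 were then called, namely Sema6a, Efnb2, Nrp1, Nrp2, Efna2 and Efna3. These same 6 were the members called under every setting and without each library. With column totals in place of the trimmed mean, which moved the median fold of all genes to 0.23, 26 members were called, 24 higher and 2 lower. The calls over all genes shifted in the same way, to 2911 higher and 329 lower, from 924 and 1103 in the main fit. Sema3f, Sema6b, Sema6c, Efna4, Efnb3 and Ephb4 then lost their calls. Without polysome DMSO replicate 3 the count was 13 members, 10 higher and 3 lower, and 1185 of all genes, 541 higher and 644 lower. That library was the only one whose omission lost the calls of Sema3a (limma, adjusted p = 0.0524 without it), Sema6c (adjusted p = 0.0741) and Dcc (adjusted p = 0.0564). Sema3c, Sema3e, Sema3f, Sema3g, Sema5a, Efna4, Efnb3 and Ephb4 lost their calls without it too, with limma adjusted p from 0.0738 to 0.161. Sema3c, Sema5a, Efna4, Efnb3, Ephb4 and Plxna3 lost theirs without polysome DMSO replicate 1 (0.0524 to 0.124), and Sema3e, Sema3f, Sema3g, Efna4, Efnb3, Ephb4 and Plxna3 without polysome DMSO replicate 2 (0.0607 to 0.118). The calls of Sema3c, Sema3e, Sema3f, Sema3g, Sema5a, Efna4, Efnb3 and Ephb4 were also lost without polysome Torin1 replicate 2 (0.0534 to 0.14). Without polysome Torin1 replicate 3 those of Sema3c, Sema5a, Efna4 and Ephb4 were lost (0.0511 to 0.0856), and without polysome Torin1 replicate 1 those of Sema3g (0.0547) and Plxna3 (0.0563). Sema3b, with scattered values, was not called. It was at 0.589, 0.595 and 0.564 ppm in DMSO and at 3.18, 1.05 and 2.46 ppm in Torin1 polysomes (limma, adjusted p = 0.123), and in total mRNA at 1.05, 0.698 and 0.641 ppm and at 0.701, 4.45 and 0.553 ppm.

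Whether Torin1 changed polysome mRNA by more or less than total mRNA was tested as an interaction, and none of the 67 members was called, against 0.726% of all genes (0.0198% higher and 0.707% lower). At an unadjusted p below 0.05 there were 2, Robo2 and Ntn5. The Robo2 difference, polysome fold minus total fold, was 0.42 ± 0.16, with a 95% interval from 0.06 to 0.78 and an adjusted p of 0.742 by limma. The intervals of this difference were -0.32 to 0.15 for Efna3, -0.28 to 0.36 for Efna2, -0.22 to 0.32 for Nrp2 and -0.11 to 0.44 for Sema6a. Of the calls made in polysome mRNA alone, none is therefore shown to differ from the response in total mRNA. The count of 0 was the same under every setting tried and without each library.

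Many guidance mRNAs were a smaller share of polysome mRNA than of total mRNA. In DMSO cells 33 of the 67 were called (49.3%), against 41% of all genes, and the directions were uneven. Only 4 were higher in polysomes (5.97%, against 20.5% of all genes) and 29 were lower (43.3%, against 20.5%). The median fold of polysome over total was -0.39 in the members and -0.03 in all genes. With column totals alone, which moved the median of all genes to -0.37, no member was called higher and 46 were called lower. Of all 20240 genes tested, 1853 were then called higher and 6708 lower, so the tilt towards lower was shared beyond the members. Total and polysome libraries of a culture come from one lysate, but the main fit did not pair them. The labels do not say which libraries share a culture, and equal replicate numbers within a treatment were assumed to mark one. With each such culture as a block in the fit, 32 members were called in DMSO cells, 5 higher and 27 lower. Of all genes 4043 were higher and 3874 lower. In Torin1 cells that fit called 34 members, 5 higher and 29 lower, and of all genes 3987 higher and 3625 lower. The values are relative within each library, so they do not show whether the amount of polysome mRNA itself differed.

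The lowest folds among the called members in DMSO belonged to Dcc, Slit2, Epha6, Epha5 and Robo2. Dcc was at 39.4, 36.6 and 38.2 ppm in total and 10.5, 11.9 and 9.86 ppm in polysome mRNA, a fold of -1.82 ± 0.11 (limma, adjusted p = 6.07e-07). Slit2, a repellent for Robo-bearing axons, was at 9.11, 6.79 and 8.78 ppm and at 2.01, 2.60 and 2.36 ppm, a fold of -1.79 ± 0.18 (limma, adjusted p = 8.14e-06). Its receptor Robo2 was at 57.1, 55.5 and 55.4 ppm and at 18.4, 22.9 and 21.6 ppm, a fold of -1.42 ± 0.12 (limma, adjusted p = 2.59e-06). In each, every polysome library lay below every total library. Epha5 had a fold of -1.51 ± 0.11. Epha6 lay below 1 ppm in the DMSO libraries and had -1.54 ± 0.53 (limma, adjusted p = 0.034). This call was lost without total DMSO replicate 1 (limma, adjusted p = 0.0887), total DMSO replicate 3 (adjusted p = 0.0866) or polysome DMSO replicate 1 (adjusted p = 0.139).

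The 4 members higher in DMSO polysomes are all membrane-bound ligands. Efna3 had a fold of 0.59 ± 0.08, Sema6b of 0.47 ± 0.10, Efnb3 of 0.46 ± 0.08 and Efna4 of 0.42 ± 0.11. With column totals alone their folds were 0.22, 0.10, 0.08 and 0.04 and none was called. Efna4 also lost its call without total DMSO replicate 3 (limma, adjusted p = 0.0541). Of the 33 receptors none was higher in polysomes and 17 were lower, among them both neuropilins, at -1.02 ± 0.09 for Nrp1 and -0.86 ± 0.09 for Nrp2. The 3 slits were all lower, with folds from -1.79 to -0.95.

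**Figure D3:**
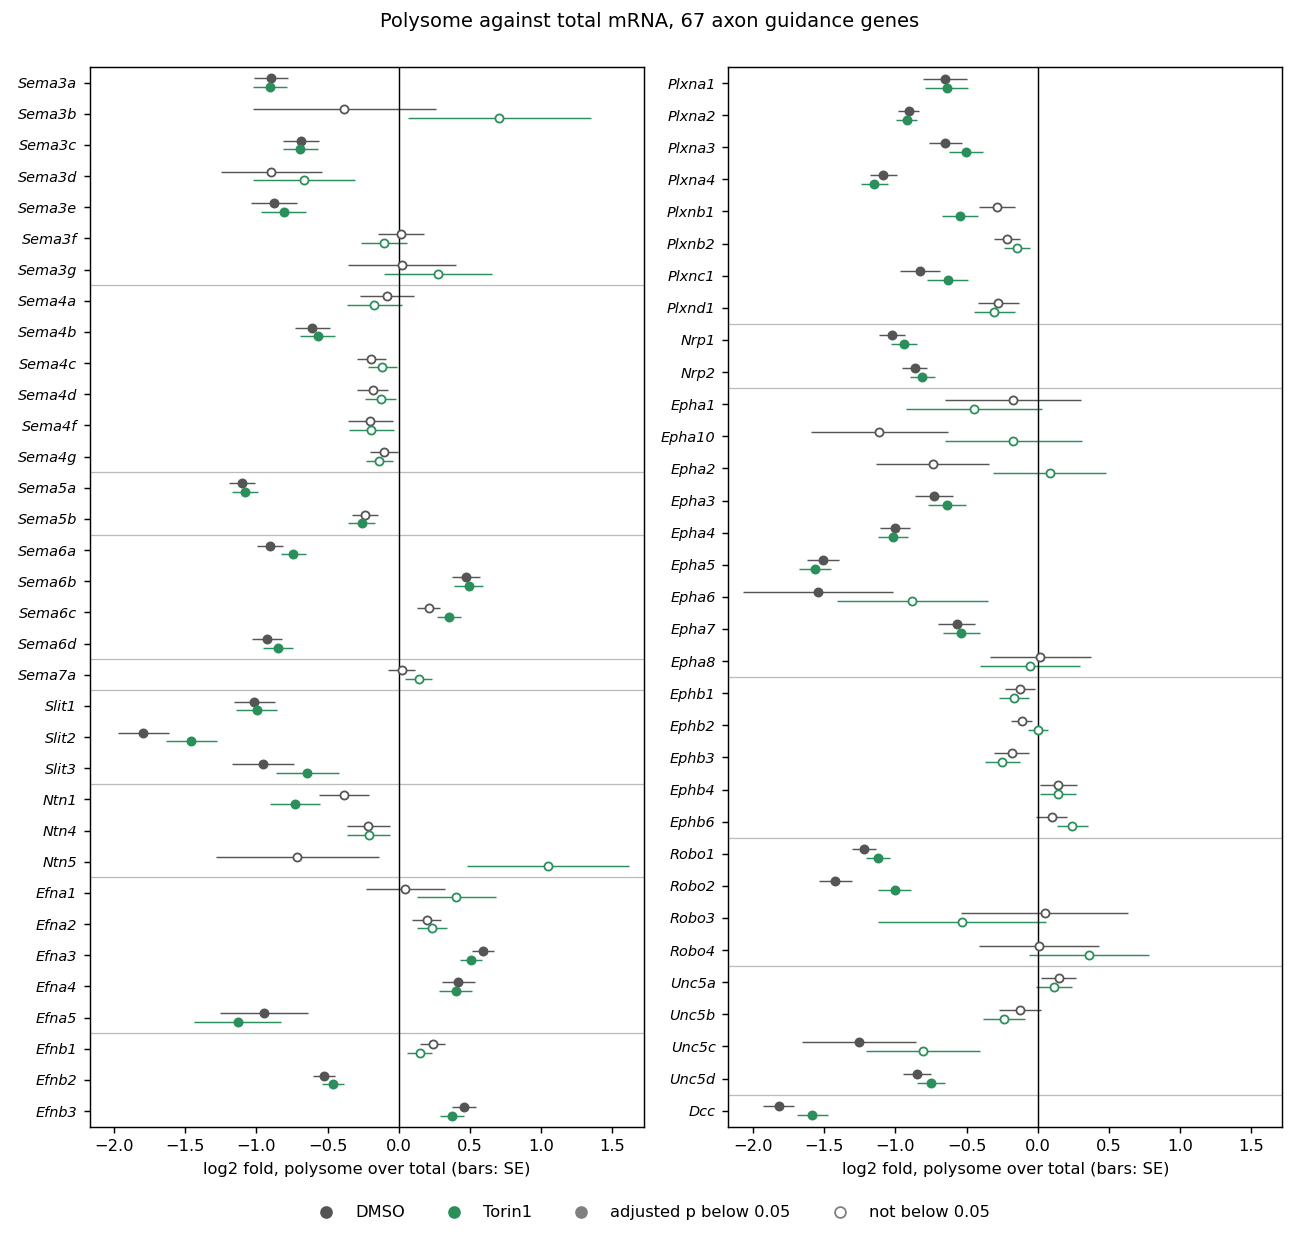
Log2 fold of polysome over total mRNA (horizontal axis) for each of the 67 genes in DMSO and in Torin1 cells. Points are folds from limma with 3 libraries a group, bars are ± 1 standard error, and filled points have an adjusted p below 0.05. Dcc, Slit2, Epha5 and Robo2 lie far to the left of 0, and Efna3, Sema6b, Efnb3 and Efna4 to the right, in both treatments.

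In Torin1 cells 35 members were called (52.2%), against 39.7% of all genes, 5 higher (7.46%, against 20.4%) and 30 lower (44.8%, against 19.2%). The median fold was -0.45 in the members and -0.02 in all genes. Of the called members 27 were lower and 4 higher in both treatments. Among the called members the lowest were Dcc at -1.58 ± 0.11, Epha5 at -1.56 ± 0.11, Slit2 at -1.46 ± 0.18, Plxna4, a receptor for class 3 and class 6 semaphorins, at -1.15 ± 0.09, and Efna5 at -1.13 ± 0.31. The highest of the called members were Efna3 at 0.51 ± 0.08, Sema6b at 0.49 ± 0.10, Efna4 at 0.40 ± 0.11, Efnb3 at 0.37 ± 0.08 and Sema6c at 0.35 ± 0.08. With column totals alone Efna3 and Sema6b kept their calls and the other three lost them. Efna4 also lost its call without total Torin1 replicate 1 (limma, adjusted p = 0.0612) or polysome Torin1 replicate 1 (adjusted p = 0.0534).

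The direction of these differences went with the genomic span of the members, the distance between the ends of the gene with its introns in RefSeq's annotation of GRCm38, which is not the length of the mRNA. All 67 members and 17436 of the genes tested have a span. The 9 members that rose in total mRNA span 44.0 to 578 kb (median 148 kb) and the 6 that fell span 4.64 to 24.4 kb (median 12.1 kb), so the 2 sets did not overlap. In polysome mRNA the sets overlapped: the 16 that rose span 12.5 to 1555 kb (median 155 kb) and the 8 that fell 4.64 to 29.0 kb (median 12.1 kb), and Sema3g and Plxna3 rose at under 30 kb. Over all genes called in total mRNA the medians were 18.9 kb for those that rose and 17.5 kb for those that fell, and in polysome mRNA 29.5 and 12.7 kb. The 4 members higher in DMSO polysomes span 4.64 to 17.3 kb, and the 29 lower ones 16.4 to 1555 kb (median 278 kb). Over all genes the medians were 11.4 kb for those higher and 53.5 kb for those lower in polysomes.

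As a description across genes, which share libraries and are not independent, Pearson's r between log10 span and the polysome over total fold in DMSO was -0.80 over the 67 members and -0.29 over the 17436 genes. With Torin1 the values were -0.81 and -0.24. For the Torin1 response r was 0.38 over members and 0.05 over all genes in total mRNA, and 0.31 and 0.11 in polysome mRNA. Of the 32 members over 100 kb 8 rose and 0 fell in total mRNA (25% and 0%), against 4.7% and 1.23% of 2278 genes of that size. Of the 28 members under 30 kb 0 rose and 6 fell (0% and 21.4%), against 3.07% and 5.51% of 10790 genes. These size limits were chosen after the values were seen. Among members over 100 kb 25 (78.1%) were lower in DMSO polysomes, against 48.1% of all genes of that size. Among members under 30 kb 4 (14.3%) were higher in DMSO polysomes, against 30.3% of all genes of that size. In that bin 1 member (3.57%) was lower, against 10.7% of all genes.

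**Figure D4:**
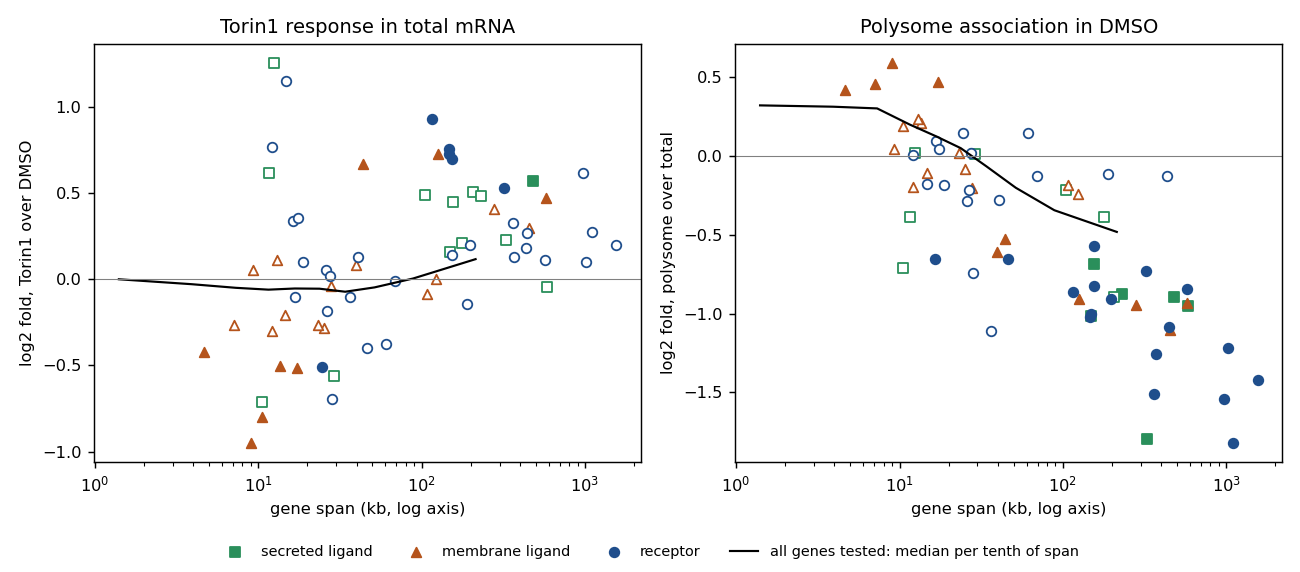
Gene span in kb (horizontal log axis) against the log2 fold of Torin1 over DMSO in total mRNA (left) and of polysome over total mRNA in DMSO (right) for the 67 genes, by role. Filled points have a limma adjusted p below 0.05, and the line joins the medians of the tested genes in 10 bins of equal number by span. Called members left of 30 kb lie below 0 in the left panel, and members over 100 kb lie below 0 in the right panel.

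Other genes of the guidance pathways, co-ligands, adhesion partners and cytoplasmic effectors, were taken from a list of 108 symbols, 105 of them tested. In total mRNA 10 rose and 6 fell, where 3.04% of all genes rose and 4.35% fell. In polysome mRNA 18 rose and 8 fell, where 4.57% of all genes rose and 5.45% fell. In the interaction 0 were called, against 0.726% of all genes. The median fold of the list was 0.04 in total and 0.06 in polysome mRNA, beside -0.01 and 0 over all genes. Flrt3 and Flrt2, adhesion proteins that bind Unc5 receptors, rose in total mRNA by 1.27 ± 0.12 and 0.96 ± 0.10, and in polysome mRNA by 1.36 ± 0.12 and 1.11 ± 0.10. Boc, a receptor for Shh in guidance, rose by 0.81 ± 0.10 in total mRNA and by 0.75 ± 0.10 in polysome mRNA. The chemokine receptors Ackr3 and Cxcr4, which share the ligand Cxcl12, had total mRNA folds of 0.78 ± 0.12 and 0.75 ± 0.10, and polysome folds of 1.07 ± 0.12 and 0.71 ± 0.10. Of the effectors, Rnd1, a small GTPase that binds plexins, had a fold of -1.02 ± 0.20 in total and -0.75 ± 0.20 in polysome mRNA, the adaptor Nck1 had -0.98 ± 0.16 and -0.74 ± 0.16, and the Ras activator Sos1 had -0.69 ± 0.12 and -0.68 ± 0.12. In DMSO 14 genes of the list were higher and 63 lower in polysome than in total mRNA, against 20.5% of all genes in each direction.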

How the data were processed

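Total and polysome mRNA were sequenced in 12 libraries, 4 groups of 3, with groups taken from the titles. STAR 2.7.9a, HTSeq 0.6.0 and mm10 appear in the submitters' processing notes without role or order, and the authors' normalization is not given. The deposited signal is a normalized abundance, never below 0, and not a number of reads, so no count model was run. Column totals ran from 14341700 to 19201400, and 0 columns belong to other samples.

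Each library was scaled by its column total times a trimmed mean of log ratios (shares of 0.3 and 0.05 trimmed), with mean factors of 1.10, 1.08, 0.846 and 1.00 for total DMSO, total Torin1, polysome DMSO and polysome Torin1. Genes reaching 1 in at least 3 libraries were fitted as log2(scaled value + 1), on the scale of the deposited table, over all 12 libraries with limma 3.58.1 in R 4.3.3, using moderated variances that follow abundance. Each of 5 comparisons had its own Benjamini-Hochberg adjustment, with a threshold of 0.05. Such folds understate changes at low values. The fit was tested on simulated data.

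Named were all members called with Torin1, the 5 highest and 5 lowest called polysome over total folds, the highest mean of each family without a call and at most 8 called genes of the wider list in a comparison. Sema3b, Efnb1, Ntn5 and, where they were not called, other members set beside a called one were chosen after their values were seen. The members and lists were chosen with earlier results of these data known. Alternatives were 2 scalings, a pseudocount of 0.1, 2 filters, the compared groups alone, replicate blocks and each library left out.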

Additional observations from a re-analysis of the deposited data

How the results depend on the processing

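With column totals alone, 12 members were called in total mRNA (8 higher and 4 lower), with the calls of Sema6d, Efna4 and Ephb4 lost, and 841 genes were called in total mRNA and 3240 in polysome mRNA (2911 higher and 329 lower), against 1496 and 2027 (924 higher and 1103 lower). The polysome folds of Sema4c (0.021), Sema7a (0.10) and Ntn1 (0.12) then changed sign, and so did that of Ntn1 without polysome Torin1 replicate 3, over a range of -0.23 to 0.074 with 1 library left out. With only the groups compared in the fit, 31 members and 2657 genes were called in total mRNA, and 6 members and 433 genes in polysome mRNA. Whether replicate numbers pair DMSO with Torin1 samples is not known. Deviations of same-numbered DMSO and Torin1 libraries correlated at 0.20, 0.04 and -0.18 in total and -0.28, 0.33 and -0.09 in polysome mRNA. Same-numbered total and polysome libraries of a treatment, assumed but not labelled to share a culture, gave -0.06 to 0.07. Without a pair known to share a lysate, these correlations cannot show whether the numbers pair samples. With the replicate number as a block, 14 members and 1269 genes were called in total mRNA, and 21 members and 1868 genes in polysome mRNA. With the assumed culture as a block, 91 genes were called in the interaction against 147. Leaving out 1 library gave 10 to 12 members and 738 to 906 genes in total mRNA, and 13 to 25 members and 1185 to 2715 genes in polysome mRNA. For polysome over total it gave 30 to 34 members and 7323 to 7698 genes in DMSO, and 32 to 38 members and 6999 to 7939 genes in Torin1. In the interaction it gave 102 to 225 genes. Of 1036 alternative values for single members 4 changed sign, 113 lost and 13 gained a call, and 906 did neither. The cause of these shifts was not tested. The depth in reads is unknown, so how far it limits members near 0 ppm cannot be given.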
